A study of Mus musculus with 12 samples.

Results

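The carboxylesterase 2 genes are the subject here: Ces2a, Ces2b, Ces2c, Ces2e, Ces2f and Ces2g, 6 of the 55487 gene identifiers in the count table. They were taken by mouse symbol, and the family was picked because Ces2e and Ces2g were high in tumours given the combination of regorafenib and anti-PD1. Values that involve the combination are therefore a description, without a test. Tumours grew from Sq-1979 cells, a murine head and neck squamous carcinoma line, placed subcutaneously in Matrigel in C3H/HeN males aged 6 weeks. Treatment began on day 20, in 4 groups of 3 libraries: regorafenib with anti-PD1 (called the combination), regorafenib, anti-PD1 and vehicle. The regorafenib dose was 5 mg/kg per day, both alone and in the combination. Regorafenib inhibits several kinases, VEGF receptors among them, and anti-PD1 is an antibody against a checkpoint receptor of T cells. The labels name daily gavage for every group and give no dose or other route for the antibody. All groups share the 1 cell line and the host strain, and no label ties the replicates of a group to different animals, so p-values measure the spread between these libraries only.

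Carboxylesterases are serine hydrolases of the endoplasmic reticulum that cleave ester and amide bonds in drugs, pesticides and lipids. The human genome holds a single CES2 gene, best known from the gut and liver, whose enzyme converts the prodrug irinotecan to its active form. In the mouse the gene has multiplied into a tandem cluster, and several of the mouse enzymes hydrolyse acylglycerols.

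The cluster lies on chromosome 8 of GRCm38, at 104734003 to 105021178 in GENCODE M21, a span of 287 kb with 8 Ces2 genes on the plus strand. In order they are Ces2a (ENSMUSG00000055730), Ces2b (ENSMUSG00000050097), Ces2c (ENSMUSG00000061825), the pseudogene Ces2d-ps, Ces2e (ENSMUSG00000031886), Ces2f (ENSMUSG00000062826), Ces2g (ENSMUSG00000031877) and Ces2h. Ces2f ends 1.67 kb before Ces2g begins, the closest spacing in the cluster, and Ces2e ends 12.7 kb before Ces2f. Ces2a stands 89.9 kb before Ces2b. None of the 6 genes overlaps an exon of another gene.

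RefSeq (GRCm38.p6, the C57BL/6J reference, whereas the tumours are of C3H origin) gave promoters for 5 of the 6 genes. The 150 bases before each start are shown because the paralogues differ in level. Capitals mark ACTTTGCCC, the longest word found in at least 4 of these 5 promoters, which was noticed after the sequences had been read. The windows run on the plus strand from chr8:104733853-104734002 (Ces2a), chr8:104846918-104847067 (Ces2c), chr8:104926110-104926259 (Ces2e), chr8:104947206-104947355 (Ces2f) and chr8:104961568-104961717 (Ces2g).
Ces2a: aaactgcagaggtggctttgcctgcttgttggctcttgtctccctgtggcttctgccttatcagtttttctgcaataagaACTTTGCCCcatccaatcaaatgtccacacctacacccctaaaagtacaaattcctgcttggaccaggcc
Ces2c: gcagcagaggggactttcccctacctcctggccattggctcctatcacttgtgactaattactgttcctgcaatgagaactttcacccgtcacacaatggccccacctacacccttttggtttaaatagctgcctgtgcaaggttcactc
Ces2e: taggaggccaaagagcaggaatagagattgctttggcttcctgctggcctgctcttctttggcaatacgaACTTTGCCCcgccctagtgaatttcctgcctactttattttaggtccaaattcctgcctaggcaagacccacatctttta
Ces2f: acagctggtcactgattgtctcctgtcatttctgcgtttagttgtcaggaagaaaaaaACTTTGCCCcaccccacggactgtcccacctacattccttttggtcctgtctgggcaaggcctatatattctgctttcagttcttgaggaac
Ces2g: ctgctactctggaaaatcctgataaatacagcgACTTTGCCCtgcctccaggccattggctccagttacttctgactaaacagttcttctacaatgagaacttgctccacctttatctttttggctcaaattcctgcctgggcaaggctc
Ces2a, Ces2e, Ces2f and Ces2g held the word, which began 70, 80, 92 and 117 bases before the start. Ces2c did not hold it, nor did Ces2h. On either strand it stood in 86 of 32851 mouse promoters of 300 bases (250 before and 50 after the start), or 0.262%. The genes with the word include the silent Ces2a beside the highly counted Ces2f and Ces2g. A match is a description of letters, not evidence of a bound site. In the same 300-base windows of Ces2a, Ces2c, Ces2e, Ces2f, Ces2g and Ces2h, 8 motifs searched on both strands were found 0 times. They were TATAAA, held by 13.6% of all promoters, CACGTG (7.15%), TGANTCA (7.81%), TGACNNNGC (12.4%), CAAAGTCCA (0.475%), TTCNNNGAA (8.3%), the direct repeat bound by PPAR and RXR dimers (0.0396%) and the core of the interferon-stimulated response element (3.44%). That says only that these letters are not in these windows. The Ces2 promoters were 49.6% to 66.9% identical in pairs, with Ces2a and Ces2c closest.

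Library totals ran between 22591835 and 28209036 counts, and 16974 genes had enough counts to be tested. Of the 6 Ces2 genes, 5 were among them. Levels are in CPM, counts scaled for library size with TMM factors. The squamous markers Krt5, Krt14 and Krt17 (keratins of basal and stressed epithelium) averaged 6343, 3662 and 985 CPM over the 12 libraries. The sum of 9 squamous markers was 11330 to 13454 CPM in the combination, 11858 to 14041 CPM with regorafenib, 11617 to 14963 CPM with anti-PD1 and 14622 to 17461 CPM with vehicle. The tissues best known for carboxylesterases were nearly absent. Of 8 hepatocyte markers, 1 passed the count filter and Serpina1a and Fgb were at 0, and the 8 together gave 0.574 to 1.63 CPM in the combination, 0.634 to 1.85 CPM with regorafenib, 0.255 to 1.44 CPM with anti-PD1 and 0.755 to 1.36 CPM with vehicle. Of 10 enterocyte markers, 3 passed the filter and Fabp2, Cdx2 and Apoa4 were at 0, with sums of 3.55 to 4.51 CPM in the combination, 3.12 to 6.22 CPM with regorafenib, 2.61 to 4.07 CPM with anti-PD1 and 2.47 to 2.91 CPM with vehicle.

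Ces2g and Ces2f were the abundant Ces2 transcripts of these tumours, Ces2e was intermediate, Ces2b and Ces2c were low, and Ces2a was not detected. Ces2g, a family member whose own substrates are less studied, had 343, 330 and 276 CPM in the combination libraries, 181, 220 and 228 CPM with regorafenib, 160.4, 159 and 155 CPM with anti-PD1, and 165, 153 and 169 CPM with vehicle. All 3 combination libraries were above the other 9, all 3 regorafenib libraries were above the 6 of anti-PD1 and vehicle, and those 6 overlapped. The anti-PD1 libraries were the most even, at 158 ± 2.55 CPM (SD, n = 3).

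Ces2f, the upstream neighbour of Ces2g, had 325, 329 and 245 CPM in the combination, 146, 234 and 219 CPM with regorafenib, 208, 170.3 and 193 CPM with anti-PD1, and 195, 171 and 158 CPM with vehicle. All 3 combination libraries again exceeded the other 9, but the lowest of them, combination 3, was next to the second regorafenib library (245 against 234 CPM). The regorafenib libraries spread across the whole range of anti-PD1 and vehicle, and the first regorafenib library was the lowest of all 12.

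Ces2e, named a pyrethroid hydrolase for its action on that class of insecticide, had 75.3, 82.1 and 80.3 CPM in the combination, 60.6, 43.5 and 64.8 CPM with regorafenib, 35.7, 44.0 and 38.5 CPM with anti-PD1, and 55.0, 48.2 and 54.6 CPM with vehicle. The 3 combination libraries were above the other 9 and close together (79.2 ± 3.56 CPM, SD, n = 3). The anti-PD1 libraries were all below the vehicle libraries, while regorafenib libraries lay on both sides of vehicle.

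Ces2b, a close relative of Ces2c by sequence, had 11.8, 10.96 and 14.8 CPM in the combination, 7.65, 8.88 and 10.6 CPM with regorafenib, 5.05, 7.41 and 6.00 CPM with anti-PD1, and 8.26, 6.57 and 7.94 CPM with vehicle. The combination libraries were above the other 9, by a narrow margin between the second combination library and the third regorafenib library (10.96 against 10.6 CPM). Regorafenib lay above anti-PD1 in all libraries, and both single-drug groups overlapped vehicle.

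Ces2c, which hydrolyses acylcarnitines and acylglycerols in the mouse gut and liver, was near the limit of detection. It had 20, 13 and 14 counts in the combination libraries, 5, 12 and 9 with regorafenib, 11, 16 and 12 with anti-PD1, and 14, 17 and 8 with vehicle. The 4 groups overlapped, so no difference was detectable at this depth. Ces2a, a pyrethroid hydrolase by name like Ces2e, had 0 counts in all 12 libraries, which allows up to 0.104 to 0.133 CPM per library (3 counts, for counting error only). The pseudogene Ces2d-ps had 11 counts over the 3 combination libraries, 9 with regorafenib, 7 with anti-PD1 and 3 with vehicle, and Ces2h had 1 and 3 counts in regorafenib 2 and 3 and 0 elsewhere.

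**Figure D1:**
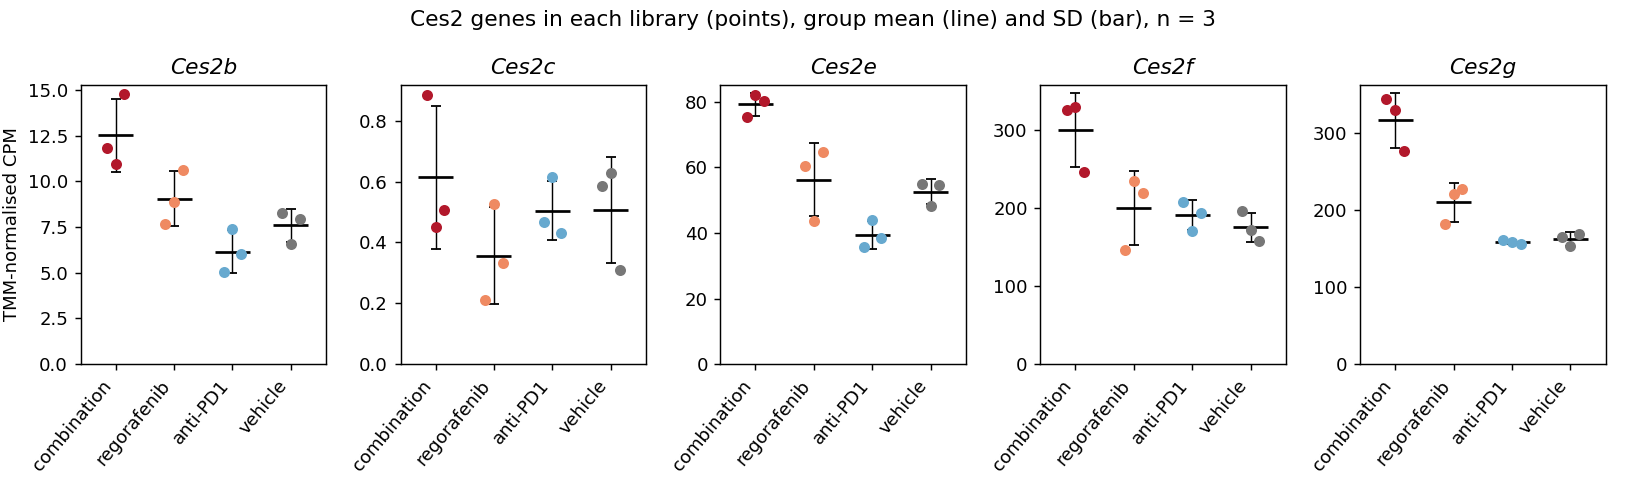
TMM-normalised CPM of the 5 detected Ces2 genes (vertical axes, a scale for each gene) in the combination, regorafenib, anti-PD1 and vehicle groups. Points are libraries, the long line is the mean and the bar the SD (n = 3). For Ces2b, Ces2e, Ces2f and Ces2g the 3 combination points lie above the other 9, and for Ces2c the groups overlap.

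Summed over the 6 genes, the family gave 757, 752 and 617 CPM in the combination, 395, 507 and 523 CPM with regorafenib, 409.6, 381 and 394 CPM with anti-PD1, and 424, 379 and 390.0 CPM with vehicle. The mean was 709 ± 79.2 CPM in the combination, 475 ± 69.5 CPM with regorafenib, 395 ± 14.4 CPM with anti-PD1 and 398 ± 23.2 CPM with vehicle (SD, n = 3 each). The combination libraries were above the other 9, and the anti-PD1 and vehicle libraries were interleaved. Ces2g and Ces2f made up most of every sum.

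Levels of different paralogues were compared per length, as FPKM (counts scaled for library size by TMM and for exon length in kb). Over all annotated exon bases, Ces2g stood at 88.5 ± 9.96 FPKM in the combination, 58.7 ± 6.99 with regorafenib, 44.2 ± 0.712 with anti-PD1 and 45.4 ± 2.41 with vehicle (SD, n = 3 each). Ces2f followed at 60.9 ± 9.57 FPKM in the combination, 40.5 ± 9.59 with regorafenib, 38.7 ± 3.85 with anti-PD1 and 35.5 ± 3.84 with vehicle. Ces2e stood at 29.4 ± 1.32 FPKM in the combination, 20.9 ± 4.17 with regorafenib, 14.6 ± 1.55 with anti-PD1 and 19.5 ± 1.43 with vehicle. These 3 genes, side by side in the distal part of the cluster, carried nearly all of the family's transcripts.

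Ces2b was far lower, at 3.67 ± 0.589 FPKM in the combination, 2.66 ± 0.439 with regorafenib, 1.81 ± 0.348 with anti-PD1 and 2.23 ± 0.265 with vehicle. Ces2c was lowest of the detected genes, with group means of 0.155 (regorafenib) to 0.267 FPKM (combination). The order Ces2g, Ces2f, Ces2e, Ces2b, Ces2c held in 12 of 12 libraries, but its first step depends on the length used. Ces2f has a long annotated transcript not marked as protein coding, which raises its exon length to 4925 bases against 1823 bases for its longest coding transcript. With the longest coding transcript of each gene, Ces2f stood at 164 ± 25.9 FPKM and Ces2g at 111 ± 12.4 FPKM in the combination, and Ces2g was above Ces2f in 0 of 12 libraries. Both stood above Ces2e in 12 of 12 libraries with either length.

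**Figure D2:**
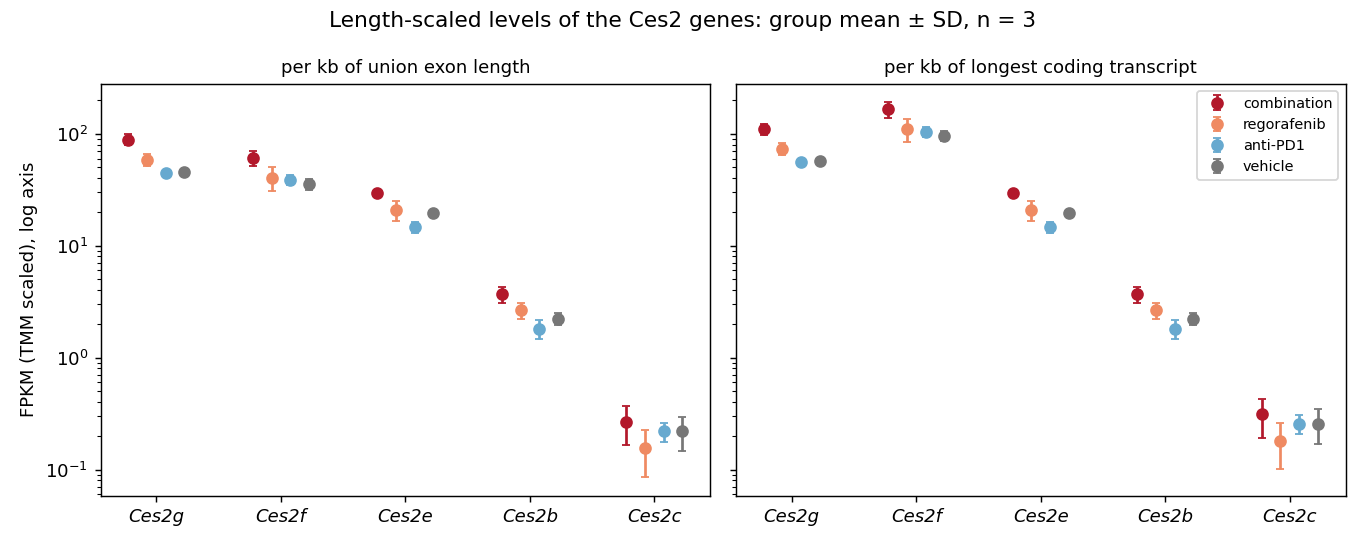
Length-scaled levels (FPKM, log axis) of 5 Ces2 genes in the 4 groups, as group mean ± SD (n = 3), per kb of union exon length on the left and of the longest coding transcript on the right. Ces2c lies far below Ces2f and Ces2g in both panels, and Ces2f and Ces2g change places between them.

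Relative to vehicle, the combination means were 1.95-fold for Ces2g, 1.72-fold for Ces2f, 1.65-fold for Ces2b, 1.51-fold for Ces2e and 1.20-fold for Ces2c. On the log2 scale the differences were 0.96 (SE 0.107), 0.78 (SE 0.180), 0.72 (SE 0.191), 0.59 (SE 0.136) and 0.26 (SE 0.408) in that order of genes, each from the fit of all 12 libraries. The family was picked on this contrast, so these values carry no test. In all 16974 genes, 7.34% passed an adjusted p of 0.05 in the combination against vehicle, with 5.03% higher and 2.32% lower, and the median log2 fold change was 0.016. Placed among the log2 fold changes of all tested genes, Ces2g was at percentile 93.5, Ces2f at 90.6, Ces2b at 89.5, Ces2e at 86.4 and Ces2c at 71.5. The size of the Ces2 differences was thus shared by many other genes.

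Against regorafenib, the combination differed by a log2 of 0.59 (SE 0.106) for Ces2g, 0.59 (SE 0.179) for Ces2f, 0.49 (SE 0.136) for Ces2e, 0.47 (SE 0.191) for Ces2b and 0.77 (SE 0.424) for Ces2c. Against anti-PD1, it differed by 1.00 (SE 0.107) for Ces2g, 0.65 (SE 0.179) for Ces2f, 1.01 (SE 0.138) for Ces2e, 1.02 (SE 0.193) for Ces2b and 0.27 (SE 0.408) for Ces2c. Of the 5 tested Ces2 genes, 4 had all 3 combination libraries above all other 9, as did 465 of 16974 genes, or 2.74%. The choice of the family used this pattern for Ces2e and Ces2g, and nothing is read from the count.

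Fibroblast markers also differed in level between these libraries. By edgeR 1 of 8 fell in the combination against vehicle, where 2.32% of all genes did. In regorafenib and in anti-PD1 against vehicle 0 of 8 passed, where 0.00589% and 0% of all genes did. In the combination 8 of 8 had negative values against vehicle, with a median log2 fold change of -1.62. With regorafenib 8 of 8 were negative (median -0.77), and with anti-PD1 7 of 8 were (median -0.32). Their sum was 4224 to 12194 CPM in the combination, 4998 to 28907 CPM with regorafenib, 5876 to 31590 CPM with anti-PD1 and 23270 to 31515 CPM with vehicle. Combination 3, with the lowest Ces2f and Ces2g of its group, had the highest fibroblast sum of its group. It was also highest there for macrophage (1085 CPM), T and NK cell (173 CPM), neutrophil (43.5 CPM), endothelial (108 CPM) and skeletal muscle markers (425 CPM). The same held for hepatocyte markers (1.63 CPM), sebaceous gland markers (253 CPM) and Y-linked genes (34.6 CPM). For squamous, differentiating keratinocyte, adipocyte and enterocyte markers combination 3 was not the highest. Its Ces2b was the highest of its group (14.8 CPM), and its Ces2e lay between those of combination 1 and combination 2. Among regorafenib libraries, Ces2g was 181 CPM in the first (fibroblast sum 10447 CPM), 220.4 CPM in the second (28907 CPM) and 228 CPM in the third (4998 CPM). The first anti-PD1 library had a fibroblast sum of 5876 CPM with 160.4 CPM of Ces2g. Every vehicle library had a higher fibroblast sum than every combination library, and less Ces2g (153 to 169 CPM against 276 to 343 CPM). Of all genes 2.32% fell by edgeR in the combination against vehicle, and of 7 endothelial markers 2 did (median log2 fold change -0.52). Sums were 60.1 to 108 CPM in the combination, 79.2 to 106 with regorafenib, 91.8 to 130.3 with anti-PD1 and 96.7 to 111 with vehicle. Of all genes, 7.34% passed by edgeR in the combination against vehicle and 0.00589% in regorafenib against vehicle. In anti-PD1 against vehicle and regorafenib against anti-PD1 0% did. Of 5 tested neutrophil markers 0 passed in any of these comparisons, so nothing is read from that count. Sums were 20.9 to 43.5 CPM in the combination, 9.71 to 34.8 with regorafenib, 8.75 to 25.4 with anti-PD1 and 8.74 to 14.6 with vehicle. Against vehicle, 5 of 5 had positive values in the combination (median log2 fold change 1.57) and with regorafenib (1.27). With anti-PD1, 4 of 5 did (0.30). The part of these cell types in the Ces2 values was not tested. In these bulk samples, fewer cells of a type and less RNA per cell cannot be told apart.

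The single-drug comparisons were not used to choose the family, although those against vehicle share the vehicle libraries with the contrast that was. In regorafenib against vehicle, 0 of the 5 tested Ces2 genes passed edgeR's quasi-likelihood test after Benjamini-Hochberg adjustment over all genes, where 0.00589% of all genes did. Ces2g had the smallest p, with a mean of 210 ± 25.0 CPM with regorafenib and 162 ± 8.62 CPM with vehicle (SD, n = 3 each; log2 fold change 0.37, SE 0.106, edgeR p 0.00520, adjusted p 0.197). All 3 regorafenib libraries were above all 3 vehicle libraries, as in 10.6% of genes. The other log2 fold changes were 0.26 (SE 0.192) for Ces2b, 0.19 (SE 0.179) for Ces2f, 0.10 (SE 0.136) for Ces2e and -0.51 (SE 0.430) for Ces2c, with edgeR adjusted p of 0.566 to 0.773. Of the 5, 1 had an unadjusted p under 0.05, as did 2398 of all genes (14.1%). Leaving out single libraries moved the log2 fold change over 0.13 to 0.36 for Ces2b and 0.075 to 0.37 for Ces2f. By DESeq2, 1 Ces2 gene passed, Ces2g (adjusted p 0.0431, the lowest of 17 alternatives that ran up to 0.484). With the same tool 425 genes passed in all, against 1 by edgeR.

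In anti-PD1 against vehicle, 0 of 16974 genes passed by edgeR (0%), 878 (5.17%) had an unadjusted p under 0.05 and 5 passed by DESeq2. Of the 5 Ces2 genes, 0 passed by either tool and 1 had an unadjusted p under 0.05. Ces2e had the smallest edgeR p, at 39.4 ± 4.19 CPM with anti-PD1 and 52.6 ± 3.85 CPM with vehicle (SD, n = 3 each; log2 fold change -0.42, SE 0.137, edgeR p 0.0113, adjusted p 0.865). Its 3 anti-PD1 libraries were below all 3 vehicle libraries, as in 9.08% of genes. Ces2b had a log2 fold change of -0.30 (SE 0.193), and Ces2f, Ces2g and Ces2c had 0.12 (SE 0.179), -0.04 (SE 0.106) and -0.01 (SE 0.413).

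Regorafenib against anti-PD1 uses neither combination nor vehicle libraries, although both groups were among those that the combination exceeded in Ces2e and Ces2g. By edgeR 0 genes passed (0%), 1875 (11%) had an unadjusted p under 0.05, and 287 passed by DESeq2. Of the Ces2 genes 0 passed by edgeR, and 3 had an unadjusted p under 0.05. Ces2g averaged 210 ± 25.0 CPM with regorafenib and 158 ± 2.55 CPM with anti-PD1 (SD, n = 3 each; log2 fold change 0.41, SE 0.106, edgeR p 0.00286, adjusted p 0.228). All its regorafenib libraries were above all anti-PD1 libraries, as in 7.15% of genes. Ces2e averaged 56.3 ± 11.3 CPM with regorafenib and 39.4 ± 4.19 CPM with anti-PD1, with overlap at 43.5 CPM in regorafenib 2 and 44.0 CPM in anti-PD1 2 (log2 fold change 0.52, SE 0.137, edgeR p 0.00325, adjusted p 0.230).

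Ces2b averaged 9.06 ± 1.496 CPM with regorafenib and 6.15 ± 1.19 CPM with anti-PD1 (log2 fold change 0.56, SE 0.193, edgeR adjusted p 0.342), without overlap. Ces2f (0.07, SE 0.179) and Ces2c (-0.50, SE 0.430) overlapped between these drugs. By DESeq2, 2 of the Ces2 genes passed, Ces2g (adjusted p 0.0287) and Ces2e (adjusted p 0.0440). Over the 17 alternatives the adjusted p ran up to 0.767 for Ces2g and 0.773 for Ces2e.

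**Figure D3:**
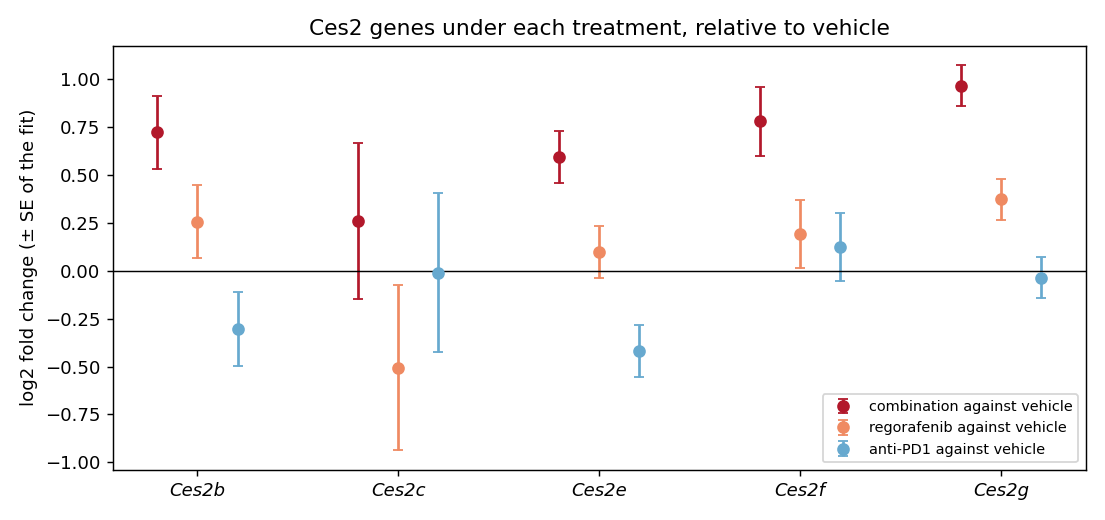
Log2 fold change against vehicle (vertical axis, with the SE of the fit as bars) of 5 Ces2 genes for the combination, regorafenib and anti-PD1, which share the 3 vehicle libraries. Combination values are 0.96 for Ces2g to 0.26 for Ces2c, and the anti-PD1 value is lowest for Ces2e at -0.42.

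On the log2 scale, the difference between combination and vehicle exceeded the sum of the 2 single-drug differences by 0.91 (SE 0.193) for Ces2e, 0.77 (SE 0.271) for Ces2b, 0.63 (SE 0.150) for Ces2g and 0.46 (SE 0.253) for Ces2f. For Ces2c it was 0.78 (SE 0.592), from few counts. The combination chose the family, so these values carry no test. Ces2e and Ces2f differ in how they come to theirs: Ces2e lies at -0.42 with anti-PD1 and 0.10 with regorafenib, and Ces2f lies at 0.12 with anti-PD1 and 0.19 with regorafenib, all against vehicle. For Ces2e all anti-PD1 libraries were below vehicle and all combination libraries above regorafenib, as in 0.183% of genes. That share counts this direction only. The choice of Ces2e used the combination side of the pattern, so nothing is read from the share.

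The paralogues varied together to different degrees over the 12 libraries. Log2 CPM of Ces2f and Ces2g, adjacent on the chromosome, had Pearson r = 0.88 over 12 libraries and 0.81 for deviations from group means. Ces2b and Ces2e had r = 0.89 over 12 libraries and 0.45 within groups, and Ces2b and Ces2g had 0.84 and 0.12. Ces2e and Ces2g had 0.81 over 12 libraries and -0.11 within groups, and Ces2e and Ces2f had 0.54 and -0.43. Ces2b and Ces2f had 0.61 and -0.08, and the low-count Ces2c reached 0.51 over 12 libraries and 0.56 within groups with Ces2f. Ces2f and Ces2g were thus the most alike within groups. Leaving out the low-count Ces2c, Ces2b and Ces2e came next (0.45), and the other pairs had -0.43 to 0.12. A division of the family into pairs was not tested. All 12 libraries share the group structure, and each pair shares library and depth, so these are descriptions without a p. Ces2f and Ces2g transcripts were 81.5% identical, about the same as Ces2e and Ces2g (81.0%) and Ces2e and Ces2f (80.9%).

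Shared sequence bears on how the counts could be split between copies. Of the 50-base words in their transcripts, 2.4% for Ces2f, 3.12% for Ces2g and 3.3% for Ces2e also occurred in transcripts of other genes, against 9.66% for Ces2b, 17.3% for Ces2a and 36.1% for Ces2c. Most of the shared words of Ces2c lay in the pseudogene Ces2d-ps, with which it was 96.1% identical, and 76.9% of the words of Ces2d-ps were shared. The predicted gene Gm8798, which lies inside the cluster, held 852 of the 1607 words of Ces2d-ps. Ces2b and Ces2c were 91.0% identical. The counts of Ces2c, Ces2d-ps and Gm8798 are therefore uncertain, and those of Ces2e, Ces2f and Ces2g rest mostly on sequence of their own.

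The genes whose log2 CPM followed Ces2e most closely over the 12 libraries were Tenm4, a teneurin of the cell surface (r = 0.92), Bnip1, a SNARE of the endoplasmic reticulum (0.92), Ccnd2, cyclin D2 (0.92), Snhg5, a host of small nucleolar RNAs (0.90), and Ccnb1ip1, a ligase of meiotic crossover (0.90). Within groups their r with Ces2e was 0.78, 0.55, 0.84, 0.57 and 0.83. Ccnd2, for example, averaged 470.8 CPM in the combination, 419 with regorafenib, 331 with anti-PD1 and 396 with vehicle, lowest with anti-PD1 as Ces2e was. Those closest to Ces2g were Sec61a2, a subunit of the protein translocon, Sirt6, a nuclear deacylase, Slc25a27, a mitochondrial carrier, Plch2, a phospholipase C, and Ankrd16, an ankyrin repeat protein, each at r = 0.97 (0.74 to 0.86 within groups). Sec61a2 averaged 42.9 CPM in the combination, 33.2 with regorafenib, 27.3 with anti-PD1 and 26.2 with vehicle. Of 12820 genes with a mean of at least 1 CPM, 144 had r above 0.9 with Ces2g, 51 with Ces2f, 5 with Ces2e and 0 with Ces2b. Ranked by deviations from group means instead, 0 of the 5 closest genes were the same.

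Within 250 kb of the ends of the cluster, 35 other genes are annotated, 8 of them at 0 counts, and 12 were tested. By edgeR 0 of the 12 passed in any of the 4 comparisons, where 7.34% of all genes did in the combination against vehicle. All combination libraries were above the other 9 in 0 of the 12, against 2.74% of all genes, so with 12 genes neither count stands apart from the background. In the combination against vehicle, 9 of the 12 lay within 0.25 of a log2 fold change of 0, against 50% of all genes, among them Nae1, a subunit of the NEDD8 activating enzyme (0.02), and Cbfb, the partner of RUNX factors (-0.24). The outermost values were -1.79 (SE 0.489) for B3gnt9, a glycosyltransferase, and 1.13 (SE 0.601) for Gm8798, a predicted gene between Ces2c and Ces2e that shares sequence with Ces2d-ps, with 1.28 CPM in the combination and 0.577 CPM with vehicle. Car7, a carbonic anhydrase, had 2.10 ± 0.197 CPM in the combination and 1.37 ± 0.220 CPM with vehicle (SD, n = 3 each; log2 fold change 0.61, SE 0.205, edgeR adjusted p 0.0870).

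**Figure D4:**
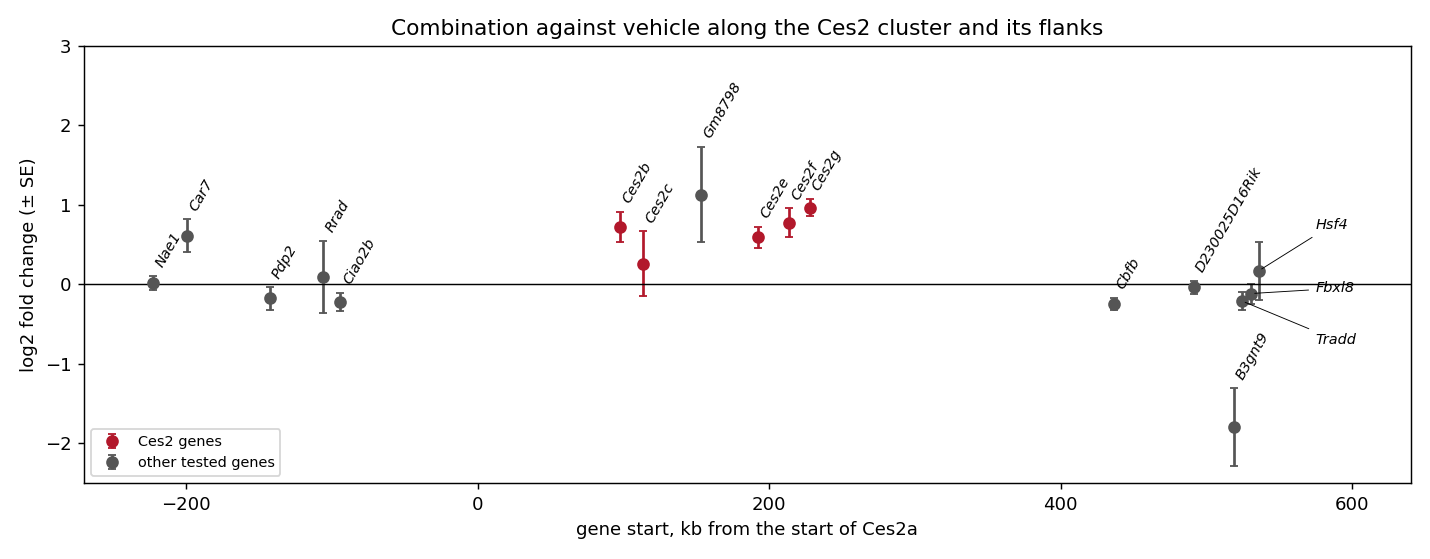
Log2 fold change of the combination against vehicle (vertical axis, bars the SE of the fit) by gene start, in kb from the start of Ces2a, for the 5 tested Ces2 genes and 12 other tested genes within 250 kb of the cluster. The Ces2 points lie at 0.26 to 0.96, and 9 of the 12 others lie within 0.25 of 0.

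Most other carboxylesterases were little expressed. Of 12 genes of the Ces1, Ces3, Ces4 and Ces5 groups, only Ces1d averaged above 1 CPM over all libraries (11.1 CPM). The 3 tested were Ces1d, Ces1e and Ces1g. By edgeR 0 of them changed in any of the 4 comparisons, where 7.34% of all genes did in the combination against vehicle. With 3 genes, nothing is read from that count. All 3 had negative values against vehicle, with a median log2 fold change of -1.22 in the combination, -1.07 with regorafenib and -0.95 with anti-PD1. Ces1d, a triacylglycerol hydrolase of liver and fat, averaged 11.5 ± 5.71 CPM in the combination, 6.65 ± 3.87 with regorafenib, 12.1 ± 5.20 with anti-PD1 and 14.0 ± 2.57 with vehicle. Its log2 fold change against vehicle was -0.29 (SE 0.512) in the combination and -1.07 (SE 0.521) with regorafenib. Fat cells are known to express Ces1d. Adipocyte markers summed to 12.2 to 28.0 CPM in the combination, 9.54 to 29.5 with regorafenib, 14.0 to 25.2 with anti-PD1 and 12.3 to 24.6 with vehicle, and their part in the Ces1d values was not tested. Ces1g, an esterase of liver lipid handling, averaged under 1 CPM in every group, with a log2 fold change of -2.001 (SE 1.31) in the combination against vehicle. Ces1e, another liver esterase, named after its values were seen, was also under 1 CPM in every group, with -1.22 (SE 0.532, edgeR unadjusted p 0.0428, adjusted p 0.164) in that comparison.

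Of 23 other genes for enzymes that split lipid esters 21 were tested. In the combination against vehicle 1 rose and 1 fell by edgeR, a share near the 7.34% of all genes, with a median log2 fold change of 0.09 against 0.016 over all genes. Mgll, which splits monoacylglycerols, fell to 12.2 ± 2.58 CPM in the combination, against 25.5 ± 2.49 CPM with vehicle (SD, n = 3 each; log2 fold change -1.06, SE 0.199, edgeR adjusted p 0.0207). Ddhd2, a lipase best known in the brain, rose to 70.6 ± 12.01 CPM in the combination, against 48.9 ± 5.78 CPM with vehicle (log2 fold change 0.53, SE 0.132, edgeR adjusted p 0.0403). Neither call is firm, since the adjusted p reached 0.0876 for Mgll and 0.170 for Ddhd2 among the 17 alternatives. For Mgll the call ended without any 1 vehicle library, combination 1 or combination 2, and with the replicate number as a block. For Ddhd2 it ended without any of these, and also without regorafenib 2 or 3 or anti-PD1 2 or 3, with the block and with only the 6 libraries compared.

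Acylglycerol synthesis, the opposite reaction, had 14 of 15 genes tested, 0 changed by edgeR in the combination against vehicle and a median log2 fold change of 0.06. Of all genes 7.34% changed there, so with 14 genes a count of 0 does not stand apart from the background. Its highest members were Gpat4, which acylates glycerol phosphate (97.5 ± 1.51 CPM in the combination and 107 ± 1.78 CPM with vehicle), and Agpat3, which adds the next acyl chain (88.5 ± 7.53 CPM in the combination and 95.4 ± 5.09 CPM with vehicle). Xenobiotic receptors and drug-metabolising enzymes had 16 of 25 tested, 0 changed in the same comparison (7.34% of all genes) and a median of 0.08. With 16 genes that count does not stand apart from the background either. Ephx1, an epoxide hydrolase of the same membrane, had 394 ± 41.5 CPM in the combination and 356 ± 7.15 CPM with vehicle. Rxra, the shared partner of the drug-sensing receptors, had 184 ± 28.3 CPM in the combination and 212 ± 17.6 CPM with vehicle. Of those receptors, Nr1i2 had 0 counts over all libraries and Nr1i3 had 8, and neither was tested. Both were named after their values were seen.

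Of 20 PPAR target genes of fatty acid use, 16 were tested, with a median log2 fold change of 0.04 in the combination against vehicle. By edgeR 0 of the 16 changed there, where 7.34% of all genes did, so the count does not stand apart from the background. Hadha, of mitochondrial beta-oxidation, had 98.4 ± 6.01 CPM in the combination and 116 ± 6.89 CPM with vehicle. Of 25 genes of the NRF2 response to oxidants, 23 were tested, with a median of -0.16 in the combination against vehicle. By edgeR 2.32% of all genes fell there, and of these 23 genes 1 fell, a count near the background. It was Prdx1, a peroxiredoxin, at 349 ± 18.3 CPM in the combination, against 503 ± 35.8 CPM with vehicle (log2 fold change -0.53, SE 0.104, edgeR adjusted p 0.0220). The adjusted p of Prdx1 reached 0.103 among the 17 alternatives. Its call ended without any 1 vehicle library, combination 1 or combination 2, and with the block. In regorafenib against vehicle, anti-PD1 against vehicle and regorafenib against anti-PD1, 0 genes of these lists passed by edgeR. Of all genes 0.00589%, 0% and 0% did, in that order, so nothing is read from these counts.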

How the data were processed

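The authors deposited raw read counts per Ensembl gene for 12 libraries in 1 table, and all columns were used. Per the labels' protocols, RNA came from an AllPrep kit and libraries from a TruSeq Stranded mRNA kit. The submitters' processing notes name cutadapt 2.4, STAR 2.7.2a and GRCm38. The counting tool, strand setting and annotation are not given in the sources used here. Symbols and coordinates came from GENCODE M21, which matched 55227 identifiers.

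Genes were kept with filterByExpr (minimum count 10, minimum total count 15), scaled by TMM and tested with edgeR 4.0.16 (R 4.3.3) in 1 quasi-likelihood fit of 4 group means (8 residual degrees of freedom, two-sided, Benjamini-Hochberg over 16974 genes, threshold 0.05). Common biological coefficient of variation was 0.227. The procedure was tested on simulated data. Alternatives were DESeq2 1.42.0, RLE factors, no filter, a replicate block, only the 6 libraries of a pair, each library left out, and for levels per length the longest transcript. The coding transcript length was added after the data were seen. For genes of similar pattern they were a prior count of 0.5 in place of 2, and deviations from group means. Protein sequences were not used here, and paralogues were compared by transcript.

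The Ces2 genes and the gene and marker lists were chosen with earlier results of these data known. Named genes were the 6 Ces2 genes, Ces2d-ps, Ces2h, tested genes within 250 kb, of each pathway list up to 4 past the threshold or else the 2 of highest mean CPM, of marker lists those at or near 0 and up to 3 of highest mean CPM, and the 5 named genes closest in pattern to Ces2e and Ces2g. One gene that this rule names is not reported here.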

Additional observations from a re-analysis of the deposited data

Results flagged for a closer look

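The anti-PD1 differences of Ces2e had opposite signs with and without regorafenib. Without regorafenib, all 3 anti-PD1 libraries were below all 3 vehicle libraries (39.4 ± 4.19 and 52.6 ± 3.85 CPM, SD, n = 3 each), a difference that did not pass edgeR's test (adjusted p 0.865). With regorafenib, all 3 combination libraries were above all 3 regorafenib libraries (79.2 ± 3.56 and 56.3 ± 11.3 CPM). The log2 effect of anti-PD1 with regorafenib minus that without it was 0.91. The difference was not tested, because Ces2e was picked for its level in the combination. The same pattern, in this direction only, held in 31 of 16974 genes (0.183%). Its combination side was used in picking Ces2e, so nothing is read from the share.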

How the results depend on the processing

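The number of genes past the threshold depended on the method. In the combination against vehicle it was 1246, but 2614 by DESeq2, 663 without the count filter, 2068 with only the 6 libraries, 11 with the replicate block and 1 to 1517 when single libraries were left out. Without any 1 vehicle library it was 1, without combination 1 it was 23 and without combination 2 it was 12. In regorafenib against vehicle it was 1, but 425 by DESeq2, 6 without the filter, 0 with the replicate block or only the 6 libraries, and 0 to 4 when libraries were left out. In anti-PD1 against vehicle it was 0, but 5 by DESeq2, and 0 to 0 when libraries were left out. In regorafenib against anti-PD1 it was 0, but 287 by DESeq2, 1 without the filter, and 0 to 0 when libraries were left out. Of the Ces2 genes, 0 passed in the single-drug comparisons, but 1 by DESeq2 in regorafenib against vehicle and 2 in regorafenib against anti-PD1. Over the alternatives the combination against vehicle stayed at log2 0.90 to 1.05 for Ces2g, 0.70 to 0.90 for Ces2f, 0.58 to 0.80 for Ces2b and 0.52 to 0.62 for Ces2e, but ran over -0.08 to 0.43 for Ces2c. Signs turned in small differences. Ces2c in anti-PD1 against vehicle (-0.01) became 0.015 with the replicate block and ran from -0.27 (without vehicle 3) to 0.17 (without vehicle 2) as libraries were left out, and was above 0 in 4 of these. Ces2f in regorafenib against anti-PD1 (0.07) ran from -0.053 (without regorafenib 2) to 0.25 (without regorafenib 1), and was also below 0 without anti-PD1 2 or regorafenib 3. Ces2e in regorafenib against vehicle (0.10) ran from -0.0052 (without regorafenib 3) to 0.27 (without regorafenib 2). The cause was not tested. Replicate numbers share no source in the labels, same-numbered libraries had correlations of -0.75 to 0.72 (median -0.05, 18 pairs), and 2 of 12 libraries correlated best with their own number. Vehicle libraries differed least from each other, with an SD of log2 differences of 0.293 to 0.303 between pairs. It was 0.465 to 0.600 in the combination, 0.464 to 0.612 with anti-PD1 and 0.670 to 0.700 with regorafenib. The fit shares 1 estimate of spread over these groups, and its bearing on the numbers of genes past the threshold was not tested. With 3 libraries a group and few counts for Ces2c, small differences were not detectable.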
